A study of Mus musculus with 8 samples.

Results

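The 39 protein-coding Hox genes of the mouse were examined as a family in RNA-seq of incisor tissue. They were picked by name alone, as every gene whose symbol reads Hox followed by a cluster letter (a, b, c or d) and a number, and they were 39 of the 23358 gene rows of the deposited table. *Hoxa* genes numbered 11 (chromosome 6), *Hoxb* genes 10 (chromosome 11), *Hoxc* genes 9 (chromosome 15) and *Hoxd* genes 9 (chromosome 2). No gene was chosen for its own value, but the family as such was singled out with the difference between *Med1* cKO and Ctrl in CLT already known, so the values for that difference, those of the model across genes included, are given as a description and support nothing.

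Cervical loop tissues came from the incisors of C57BL/6 mice at 4 weeks of age and were parted into the head (CLH), which houses the dental epithelial stem cells, and the tail (CLT), which houses the cells they give rise to. In *Med1* cKO mice, Cre recombinase driven by the *Krt14* promoter deletes the floxed exons 8 to 10 of *Med1*, a Mediator subunit, in *Krt14*-expressing epithelium but not in mesenchyme; Ctrl mice were littermates without Cre. Tissues of several mice were pooled, the study names 2 litters without saying which library came from which, and each of the 4 groups (Ctrl CLH, cKO CLH, Ctrl CLT and cKO CLT) had 2 libraries, so that p-values measure the spread between 2 pooled libraries a group. Values are RPKM, in which each gene's reads are divided by its length in kilobases and scaled to a library of 1000000 reads.

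Hox genes encode transcription factors with a homeodomain, a DNA-binding fold of which the third helix reads the target sequence. They lie in 4 clusters, and within a cluster the genes with low numbers are used towards the head and those with high numbers towards the tail of the embryo, an order that adult skin and connective tissue of the trunk keep in part. The neural crest and epithelium of the jaw, from which incisors form, are known for lacking Hox expression. *Hoxc13* is also known for a role outside that order, in the matrix and shaft of hair and in nails.

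The homeobox, the coding stretch for the homeodomain, shows how alike the members are, and so whether short reads can tell them apart. It was found in 39 of 39 members and was 180 bases long. Shown 5′ to 3′ are the homeoboxes of the member with the highest level in cKO CLT in each cluster, read from GENCODE M21 transcripts of mm10, with the codons of the third helix in capitals. They lie at chr6:52202632-52202811 on the minus strand (*Hoxa5*), chr11:96289385-96289564 on the plus strand (*Hoxb7*), chr15:102927210-102927389 on the plus strand (*Hoxc13*) and chr2:74706525-74706704 on the plus strand (*Hoxd8*), each in a coding exon.
Hoxa5: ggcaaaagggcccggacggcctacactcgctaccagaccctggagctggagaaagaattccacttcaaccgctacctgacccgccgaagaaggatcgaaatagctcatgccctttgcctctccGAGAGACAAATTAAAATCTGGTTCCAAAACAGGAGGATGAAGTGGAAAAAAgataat
Hoxb7: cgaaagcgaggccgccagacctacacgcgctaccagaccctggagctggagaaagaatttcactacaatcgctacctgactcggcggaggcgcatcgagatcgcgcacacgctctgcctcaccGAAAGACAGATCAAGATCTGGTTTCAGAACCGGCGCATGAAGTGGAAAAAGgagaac
Hoxc13: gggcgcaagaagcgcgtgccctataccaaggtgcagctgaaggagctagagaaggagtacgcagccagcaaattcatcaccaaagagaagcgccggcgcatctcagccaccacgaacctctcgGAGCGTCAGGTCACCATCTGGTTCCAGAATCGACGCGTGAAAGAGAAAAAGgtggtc
Hoxd8: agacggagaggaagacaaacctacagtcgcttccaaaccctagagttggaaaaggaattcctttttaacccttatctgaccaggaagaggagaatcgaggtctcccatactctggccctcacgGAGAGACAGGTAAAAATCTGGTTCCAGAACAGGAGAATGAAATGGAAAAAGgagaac
*Hoxa5* and *Hoxb7* shared 77.8% of the 180 bases and *Hoxb7* and *Hoxd8* 72.8%, whereas *Hoxc13* shared 48.3% to 52.2% with the other three. Over the whole transcripts, exact stretches of 50 bases (the read length) were shared in only 4 pairs of members. *Hoxd3* and *Hoxd4* shared 339 such stretches, *Hoxc5* and *Hoxc10* 119, *Hoxa6* and *Hoxb4* 3, and *Hoxb9* and *Hoxc9* 1. By this measure the values of *Hoxd3*, *Hoxd4*, *Hoxc5* and *Hoxc10* are the least certain. The deposited spans of *Hoxc5* and *Hoxc10* do not overlap, however, and the annotation used for counting is not known, so whether their reads were shared cannot be told. In the deposited gene spans *Hoxa3* also overlapped *Hoxa4*, *Hoxa5* and *Hoxa6*, *Hoxd3* overlapped *Hoxd4*, and 7 members overlapped noncoding rows (*Hoxa3*, *Hoxa5* and *Hoxa6* with 2700086A05Rik, *Hoxa11* with *Hoxa11as*, *Hoxc5* with *Mir615*, *Hoxd3* with 1700109F18Rik, *Hoxd3* and *Hoxd4* with *Mir10b*). The strand setting of the counting was not given in the sources used here, so reads of overlapping genes on opposite strands cannot be told apart.

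Library totals ranged from 26591612 (Ctrl CLT 2) to 34420180 reads (Ctrl CLH 1). *Med1*, the targeted gene, was at 7.71 and 9.12 RPKM in Ctrl CLH, 7.10 and 7.03 in cKO CLH, and in CLT 4.83 and 8.71 for Ctrl against 9.15 and 8.96 for cKO, so it was not lower in the libraries labelled cKO CLT. These values cover the whole gene while only 3 exons are deleted, and mesenchyme keeps the gene, so they check the labels only in part. Ctrl CLT 1 and 2 stood apart from each other: the median difference between them over the 14148 genes tested was 0.40 on the log2 scale, against 0.09 to 0.11 in the other groups, and 34.6% of these genes differed more than 1.5-fold between them, against 0.763% to 1.12%. Results that rest on the Ctrl CLT libraries are therefore given for each of them. Of the defining genes of ameloblasts, the enamel-forming progeny expected in CLT, all 7 listed were lower in both libraries labelled cKO CLT than in both labelled Ctrl CLT. So were 29.5% of all genes with a read. The summed levels of the 7 were 19.7 and 15.8 RPKM in cKO CLT against 84584 and 37392 in Ctrl CLT and 12503 to 14318 in CLH. *Amtn*, at 6.88 and 8.72 RPKM in cKO CLT, lay within its range in CLH (5.48 to 19.3).

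The Hox genes were nearly silent in CLH of either genotype and in Ctrl CLT 2, read the most in both cKO CLT libraries, and in between in Ctrl CLT 1. Together the 39 members received 57 and 29 reads in Ctrl CLH, 38 and 69 in cKO CLH, and in CLT 3042 and 46 for Ctrl against 9253 and 8525 for cKO. Scaled to 1000000 reads of the library this was 1.66 and 1.08 in Ctrl CLH, 1.13 and 2.33 in cKO CLH, and in CLT 104 and 1.73 for Ctrl against 330 and 313 for cKO. The 2 cKO CLT libraries were the highest of all 8, Ctrl CLT 1 stood between them and the rest, and Ctrl CLT 2 lay within the range of CLH. More than 3 reads, the limit that a count of 0 allows, were seen for 30 members in each cKO CLT library and 29 in Ctrl CLT 1, but for 4 in Ctrl CLT 2 and 2 to 5 in each CLH library. In bulk tissue, fewer cells of a type and less RNA per cell cannot be told apart.

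**Figure D1:**
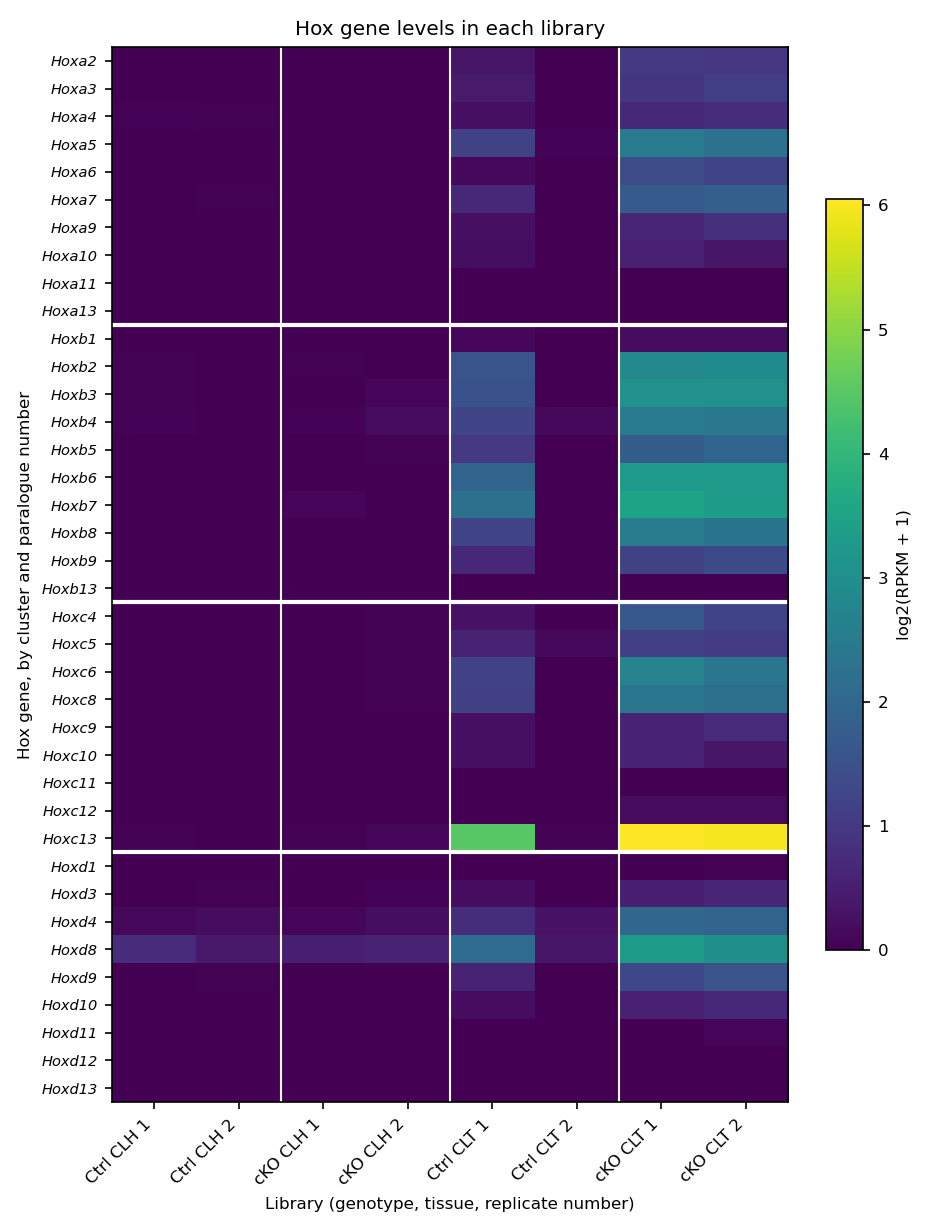
Level of 38 of the 39 Hox genes (rows, by cluster and paralogue number) in each of the 8 libraries (columns), as log2(RPKM + 1). The signal sits in the 2 cKO CLT columns and, weaker, in Ctrl CLT 1, and *Hoxc13* is the brightest row.

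*Hoxc13*, the *Hoxc* gene known from hair, was the highest member. Its RPKM was 0.0239 and 0 in Ctrl CLH, 0.0244 and 0.0695 in cKO CLH, and in CLT 21.4 and 0.0309 for Ctrl against 65.4 and 61.8 for cKO. Both cKO CLT libraries lay above both Ctrl CLT libraries, as they did for 33.8% of all genes with a read, with a mean of 63.6 ± 2.57 RPKM (SD, n = 2) that was 2.97 times the level in Ctrl CLT 1, while Ctrl CLT 2 held 2 reads. The study compared hair lineage genes between cKO and Ctrl CLT by RNA-seq, so the level of *Hoxc13* here is not independent evidence of the direction of such genes.

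The levels of the other *Hoxc* genes were far lower. *Hoxc6* was at 1.27 and 0 RPKM in Ctrl CLT against 5.42 and 4.19 in cKO CLT, and *Hoxc8*, a thoracic patterning gene, at 1.23 and 0 against 4.22 and 3.67. *Hoxc4* was at 0.224 and 0 against 2.18 and 1.35, and *Hoxc5* at 0.526 and 0.0964 against 1.22 and 1.09. In these 4 genes too both cKO CLT libraries lay above both Ctrl CLT libraries (33.8% of all genes with a read), and in CLH they reached at most 0.0286 RPKM (*Hoxc8*). *Hoxc9* and *Hoxc10*, which pattern the lower trunk, stayed at 0.498 to 0.682 and 0.287 to 0.485 RPKM in cKO CLT and had 0 reads in every CLH library, and *Hoxc12* had 3 reads in each cKO CLT library and none elsewhere.

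In the *Hoxb* cluster, the levels of *Hoxb2* to *Hoxb9* in cKO CLT lay between 1.26 and 10.5 RPKM. *Hoxb7* was at 0 and 0 RPKM in Ctrl CLH, 0.07 and 0 in cKO CLH, and in CLT 3.72 and 0 for Ctrl against 10.5 and 8.96 for cKO. *Hoxb6*, with no read in any CLH library, was at 2.87 and 0 in Ctrl CLT against 8.58 and 8.71 in cKO CLT. *Hoxb3*, which patterns the hindbrain and the pharyngeal arches behind the jaw, was at 1.88 and 0 against 7.32 and 7.38. These 3 genes had 0 reads in Ctrl CLT 2, and in CLH a library held at most 6 reads of *Hoxb3* and 3 of *Hoxb7*. Against the limit of 3 reads in Ctrl CLT 2, the cKO CLT mean was at least 242-fold higher for *Hoxb3*, at least 109-fold for *Hoxb7* and at least 101-fold for *Hoxb6*; these bounds cover counting error only.

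Of the other *Hoxb* genes, *Hoxb2* (hindbrain) was at 1.95 and 0 RPKM in Ctrl CLT against 6.17 and 6.73 in cKO CLT, and *Hoxb4* (neck) at 1.41 and 0.0879 against 4.55 and 4.36. *Hoxb8* was at 1.38 and 0 against 4.84 and 4.02, *Hoxb5* at 0.991 and 0 against 2.43 and 2.86, and *Hoxb9* at 0.621 and 0 against 1.26 and 1.55. For each of the 5 both cKO CLT libraries lay above both Ctrl CLT libraries (33.8% of all genes with a read), and the highest value among them in CLH was 0.132 RPKM, for *Hoxb4* in cKO CLH 2. *Hoxb1*, the lowest-numbered gene of the cluster, was at 0.0823 and 0 against 0.155 and 0.141, that is 9 and 8 reads in cKO CLT. *Hoxb13*, at the other end of the cluster, had no read in any library.

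The *Hoxa* genes were lower. *Hoxa5*, a gene of the neck and upper trunk, was at 1.26 and 0.0401 RPKM in Ctrl CLT against 4.52 and 3.79 in cKO CLT, and at most 0.0158 in CLH. *Hoxa7* was at 0.596 and 0 against 2.30 and 2.57, and *Hoxa6* at 0.0978 and 0 against 1.63 and 1.36. *Hoxa6* thus had 2 reads in Ctrl CLT 1 against 32 and 26 in cKO CLT. *Hoxa2*, *Hoxa3*, *Hoxa4*, *Hoxa9* and *Hoxa10* lay at or below 1.17 RPKM in every library, and above 3 reads only in the cKO CLT libraries and Ctrl CLT 1. *Hoxa11* had a single read, in Ctrl CLT 1, and *Hoxa13* had none.

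The *Hoxd* cluster held the pair of members with the most reads in CLH, *Hoxd8* and *Hoxd4*. *Hoxd8* was at 0.694 and 0.340 RPKM in Ctrl CLH, 0.437 and 0.499 in cKO CLH, and in CLT 3.31 and 0.290 for Ctrl against 8.84 and 7.11 for cKO, and no library lacked it, with 11 reads or more. *Hoxd4* was at 0.102 and 0.145 in Ctrl CLH, 0.0579 and 0.172 in cKO CLH, and in CLT 0.735 and 0.235 for Ctrl against 2.97 and 2.89 for cKO. *Hoxd9* was at 0.505 and 0 in Ctrl CLT against 1.48 and 1.94 in cKO CLT and had 1 read in all CLH libraries together. *Hoxd3* and *Hoxd10* reached 0.568 and 0.594 RPKM in cKO CLT, and the digit-patterning end of the cluster, *Hoxd11* to *Hoxd13*, held at most 2 reads in any library, as did *Hoxd1*.

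Of the 39 members, 35 had a read in some library and 4 (*Hoxa13*, *Hoxb13*, *Hoxc11* and *Hoxd12*) had none. In order of their mean in cKO CLT, *Hoxc13* was followed by *Hoxb7* (9.72 ± 1.08 RPKM, SD, n = 2), *Hoxb6* (8.64 ± 0.0905), *Hoxd8* (7.97 ± 1.23), *Hoxb3* (7.35 ± 0.0397) and *Hoxb2* (6.45 ± 0.392). The range of *Hoxd8* between the 2 libraries included both values of *Hoxb6* and both of *Hoxb3*, so these neighbours in the order did not differ beyond their spread. Summed by paralogue number in cKO CLT 1 and 2, group 13 reached 65.4 and 61.8 RPKM, all of it *Hoxc13*, and groups 6, 7 and 8 reached 15.6 and 14.3, 12.8 and 11.5, and 17.9 and 14.8. Groups 2 to 5 lay between 7.17 and 10.3 and group 9 at 3.80 and 4.96, while groups 1, 10, 11 and 12 stayed at or below 1.42. Apart from group 13, the sums over clusters were thus highest at groups 6 to 8, but within the *Hoxb* cluster *Hoxb3* and *Hoxb2* lay above *Hoxb4*, *Hoxb5* and *Hoxb8*.

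**Figure D2:**
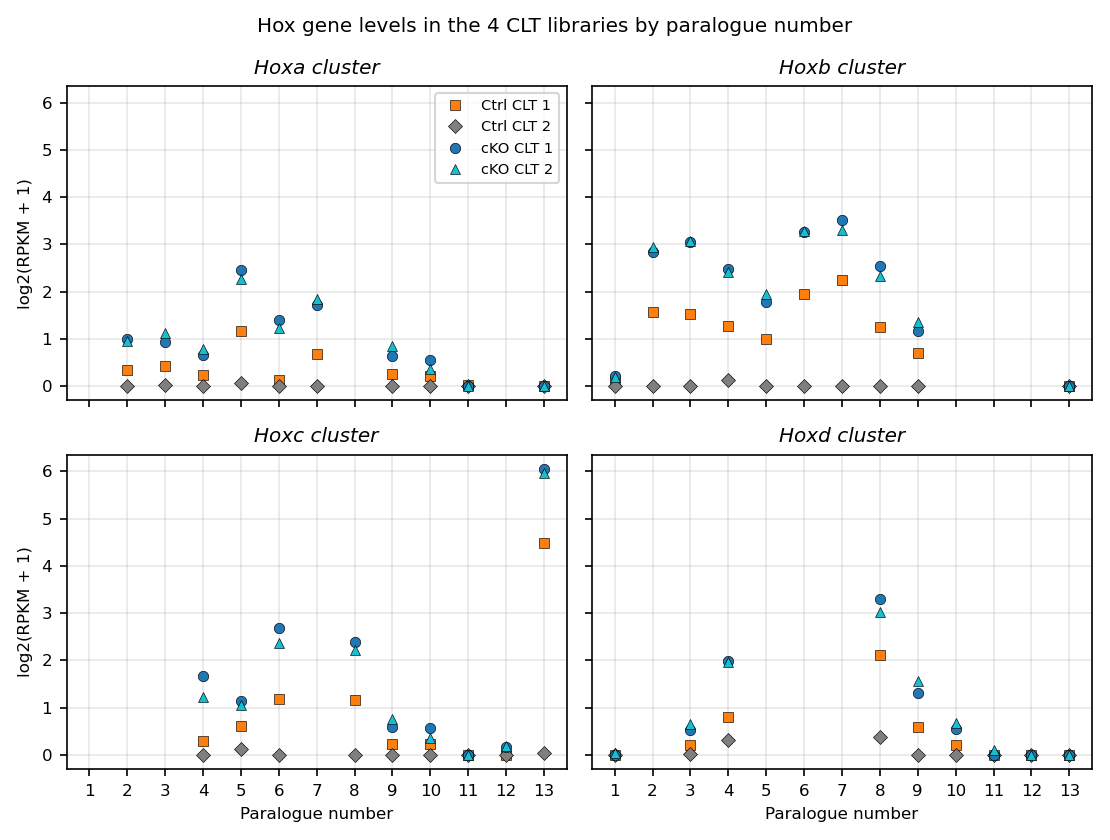
Levels of 38 Hox genes, as log2(RPKM + 1), against their paralogue number, for the 4 clusters and the 4 CLT libraries (1 symbol a library). The 2 cKO CLT libraries lie close together, Ctrl CLT 1 follows the same profile lower down, and Ctrl CLT 2 stays near 0; *Hoxc13* (65.4 and 61.8 RPKM in cKO CLT) stands alone at the end of its cluster.

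Between the genotypes in CLT, both cKO libraries exceeded both Ctrl libraries for 31 of the 35 members with a read, and for 0 members they lay below both. Over all genes with a read in any library, 33.8% were of the first kind and 29.5% of the second. The full order, both cKO CLT libraries above Ctrl CLT 1 and Ctrl CLT 1 above Ctrl CLT 2, was seen for 30 of the 35 members with a read and for 24.1% of all such genes. Since the family was singled out with this contrast known, nothing is read from these shares.

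For the model across genes, log2(RPKM + 1) was used, and genes with at least 1 RPKM in 2 libraries entered it (14148 genes). Of the members 19 entered and 20 were too low. All 19 passed through their level in cKO CLT, so that they had to be higher there, and the numbers called among them carry no weight of their own. With limma, 0 of the 19 passed an adjusted p of 0.05 for cKO against Ctrl in CLT, where 0.0777% of all genes were called higher and 1.68% lower, and 18 passed an unadjusted p of 0.05, which 19.8% of all genes did in that direction. The differences of log2(RPKM + 1) ranged from 0.73 (*Hoxc5*) to 3.75 (*Hoxc13*) and their standard errors from 0.19 to 1.57. For *Hoxb3* the difference was 2.30 ± 0.56 (SE), for *Hoxb7* 2.30 ± 0.81, for *Hoxd8* 1.92 ± 0.64 and for *Hoxa5* 1.75 ± 0.43. The added 1 RPKM makes these differences smaller than the change of the low members, and the gap between the Ctrl CLT libraries makes their errors wide. A replicate block raised the count to 12 (6.28% of all genes called higher), and a fit of all 8 libraries to 18 (23.7%). Leaving out Ctrl CLT 1 gave 19 (31.4%), and leaving out its partner Ctrl CLT 2 also gave 19 (29.1%), fits in which the lone Ctrl library is assumed to vary like the cKO pair. The difference for *Hoxc13* was then 5.97 without Ctrl CLT 1 and 1.53 without Ctrl CLT 2.

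Ctrl CLT 1 carried the Hox profile of cKO CLT at a nearly constant fraction. Scaled to the library totals, its Hox reads amounted to 32.3% (95% interval 31.1 to 33.6, exact binomial, counting error only) of those in both cKO CLT libraries pooled. By cluster the value was 28.6% for *Hoxa*, 31.6% for *Hoxb*, 33.0% for *Hoxc* and 33.6% for *Hoxd*. Over the 30 members with more than 3 reads in each cKO CLT library it ran from 6.52% (*Hoxa6*) to 55.6% (*Hoxb1*), with a median of 30.4%, and the intervals of 26 of the 30 held the value of the whole family. *Hoxd8* lay above it with 41.5% (34.2 to 49.9), and *Hoxa6* (6.52%, 0.771 to 24.6), *Hoxb3* (25.6%, 22.0 to 29.7) and *Hoxc4* (12.7%, 6.63 to 22.2) below it. *Hoxc13*, with 1523 of the 3042 Hox reads in Ctrl CLT 1, was at 33.6% (31.8 to 35.5) and weighs heavily in the value of the family. Members with few reads had wide intervals (*Hoxb1*, 16.0 to 157). That most intervals held the family value therefore does not show a constant fraction.

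**Figure D3:**
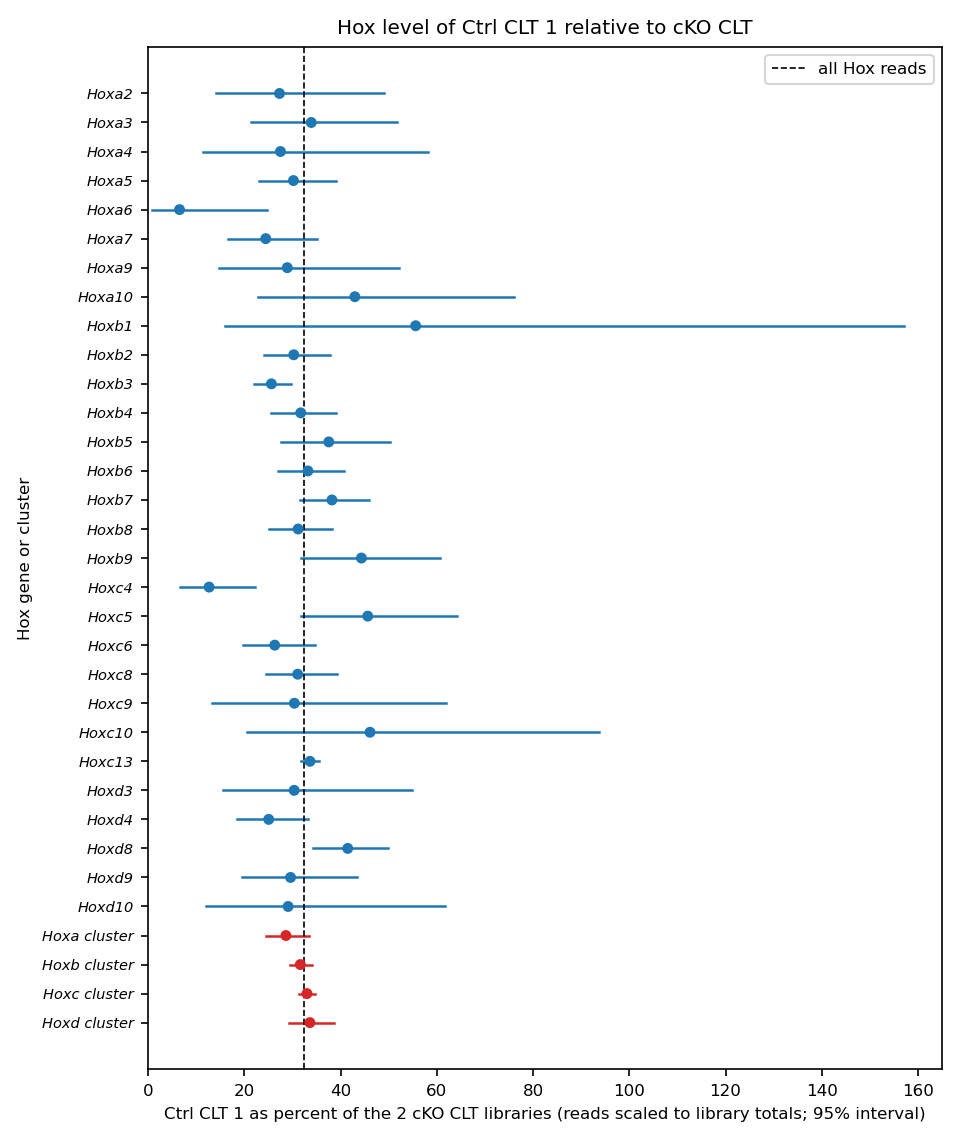
Levels of Hox genes in Ctrl CLT 1 as a percentage of their level in the 2 cKO CLT libraries together (x axis, reads scaled to the library totals), with 95% intervals for counting error, for 29 members (blue) and the 4 clusters (red). The dashed line is the value for all Hox reads, 32.3%, which 25 of the 29 intervals drawn hold.

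Genes outside the family were set beside this fraction. Of all genes, 248 had at least 20 reads in each cKO CLT library and at most 3 in each CLH library and in Ctrl CLT 2. Over them Ctrl CLT 1 was at a median of 31.6% of cKO CLT (quartiles 26.97 and 35.26), with 30.3% for the 21 Hox genes among them and 32.0% for the other 227, which ran from 6.41% to 69.7%; the difference was not tested. Of the sums over marker lists, hair matrix and shaft genes (23 genes) reached 12453 and 13640 RPKM in cKO CLT, 4288 in Ctrl CLT 1 and 104 in Ctrl CLT 2, cornified epidermis markers (12 genes) 1941 and 2117, 688 and 8.38, skeletal muscle markers (8 genes) 1860 and 2048, 679 and 52.3, and melanocyte markers (6 genes) 414 and 414, 134 and 10.3. Ctrl CLT 1 was thus at 32.9%, 33.9%, 34.8% and 32.4% of the cKO CLT mean for these lists, and Ctrl CLT 2 at 0.798%, 0.413%, 2.67% and 2.50%. Basal epithelium markers (6 genes) departed from this fraction, with 2059 and 2317 RPKM in cKO CLT, 1479 in Ctrl CLT 1 (67.6%), 840 in Ctrl CLT 2 (38.4%) and 585 to 681 in CLH. In CLH the sums ran from 103 to 107 RPKM for hair (*Msx2*, also expressed in tooth, supplying 90.0 to 95.9 of it), 9.94 to 21.6 for cornified epidermis, 27.7 to 32.0 for muscle and 4.26 to 4.58 for melanocytes.

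Among the defining genes of these lists, *Krt71* of the inner root sheath was at 1229 and 1.30 RPKM in Ctrl CLT against 3726 and 4189 in cKO CLT. *Acta1*, skeletal muscle actin, was at 190 and 10.3 against 551 and 659, and *Mlana* of melanocytes at 36.9 and 0 against 111 and 113. Fibroblast and mesenchyme markers (12 genes) did not follow that order as a sum, which was 2325 and 2579 RPKM in cKO CLT, 2918 and 4169 in Ctrl CLT and 3738 to 4726 in CLH. By the fitted sign for cKO against Ctrl in CLT, 9 of the 12 were lower and 3 higher (median -1.02 on the log2 scale). *Lum* was at 41.4 and 38.0 RPKM in cKO CLT against 191 and 673 in Ctrl CLT. Against most of the list, *Col3a1*, a collagen, did follow the order, at 874 and 979 RPKM in cKO CLT, 527 in Ctrl CLT 1 and 456 in Ctrl CLT 2. So did *Thy1*, at 43.6 and 46.4, 21.1 and 16.9. Skin, its hair and trunk or limb muscle are tissues in which Hox genes are normally read, and the part of such tissue in the Hox values was not tested.

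**Figure D4:**
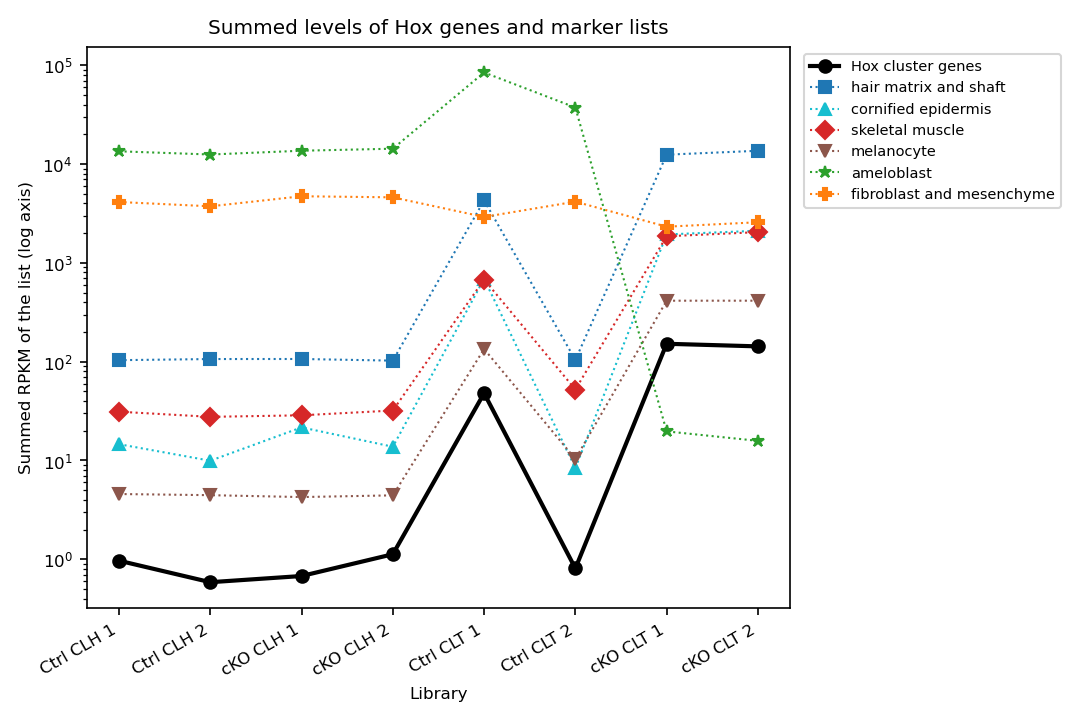
Summed RPKM (log axis) of the Hox genes and of 6 marker lists in each of the 8 libraries. The Hox sum rises and falls with hair, cornified epidermis, skeletal muscle and melanocyte markers, whereas ameloblast markers fall to 19.7 and 15.8 RPKM in cKO CLT.

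In CLH, no difference between the genotypes was detectable at this depth. With limma, 0 of the 19 members tested passed an adjusted p of 0.05 and 0 an unadjusted p of 0.05, against 0.0% of all genes called in each direction, and 4.83% and 2.42% of all genes at an unadjusted p, higher and lower. Fits by other scalings and by voom on the reads behind the RPKM also called 0. The differences of log2(RPKM + 1), cKO minus Ctrl, ran from -0.04 (*Hoxd8*, SE 0.12) to 0.08 (*Hoxb4*, SE 0.05). Both cKO CLH libraries exceeded both Ctrl CLH libraries for 2 of the 35 members with a read and lay below both for 1, against 18.1% and 17.0% of genes with a read. Only *Hoxb3*, *Hoxb4*, *Hoxc13*, *Hoxd4* and *Hoxd8* had more than 3 reads in any CLH library.

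Between the tissues, which share libraries with the comparisons above, the members lay higher in CLT in the cKO mice. In cKO, limma called 19 of 19 members higher in CLT than in CLH, where 28.9% of all genes were called higher and 45.1% lower, and the median over all genes was -0.18 on the log2 scale. As these members passed the filter only through cKO CLT, that count is a description. The difference of log2(RPKM + 1) was 5.95 ± 0.10 (SE) for *Hoxc13*, 3.37 ± 0.11 for *Hoxb7* and 2.61 ± 0.12 for *Hoxd8*, and the lowest was 1.09 ± 0.10 for *Hoxc5*.

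In Ctrl, limma called 0 of 19 members in CLT against CLH, and 0.00707% of all genes higher and 0.0% lower. Differences ran from 0.07 (*Hoxa6*) to 2.25 (*Hoxc13*, SE 1.59), and the lowest adjusted p, 0.55, was that of *Hoxc13*. At an unadjusted p of 0.05, 0 members passed as well, against 4.15% and 9.0% of all genes, higher and lower. With Ctrl CLT 2 left out, 18 of 19 were called (18.4% of all genes called higher) and *Hoxc13* reached 4.47, whereas with Ctrl CLT 1 left out 0 were called (1.91%) and *Hoxd8* turned to -0.22. The result in Ctrl therefore depended on which of the Ctrl CLT libraries was used. A test of whether the genotype difference differed between CLT and CLH called 4 members, where 8.05% of all genes were called in that direction and 9.58% in the other; as it contains the CLT values, it too is a description.

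**Figure D5:**
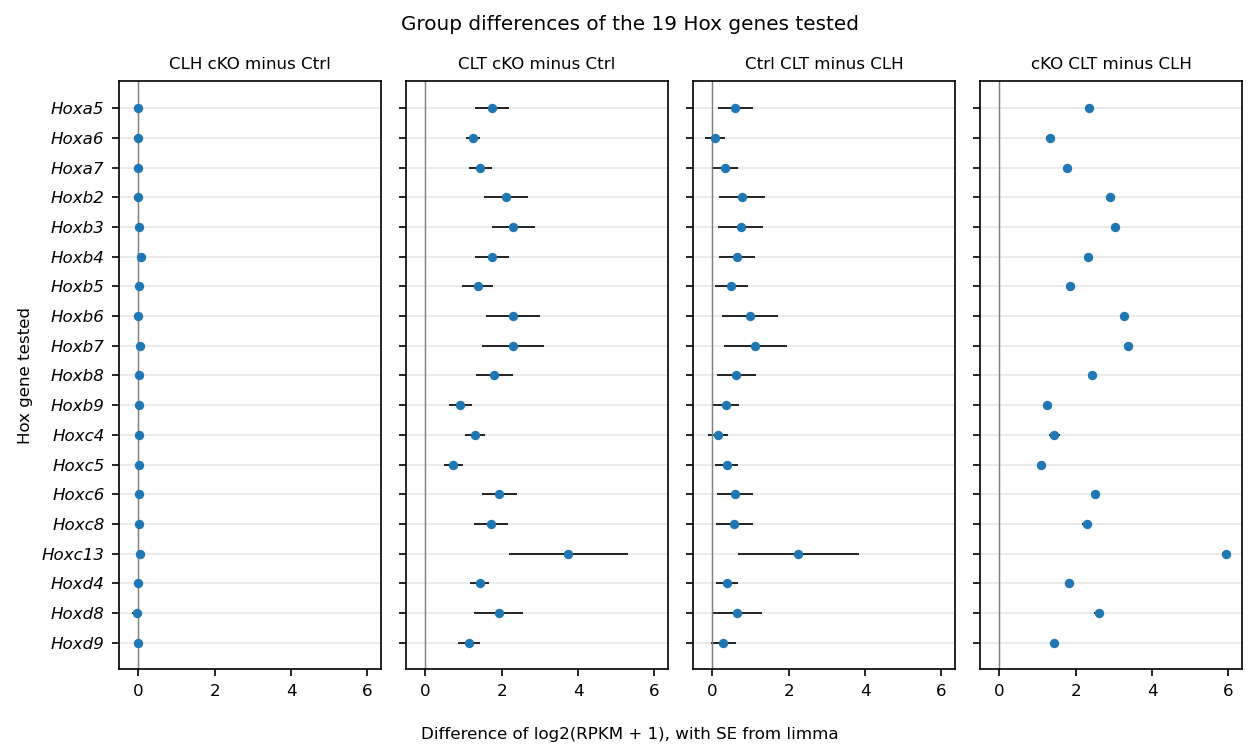
Differences of log2(RPKM + 1) with standard errors from limma for the 19 Hox genes tested (rows) in 4 comparisons (panels). Values lie at 0 within 0.08 in CLH, spread from 0.73 to 3.75 with wide errors for cKO against Ctrl in CLT, and reach 5.95 (*Hoxc13*) with narrow errors for CLT against CLH in cKO.

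Most noncoding RNAs of the clusters that were read had their reads in cKO CLT and Ctrl CLT 1. Of 23 listed, 13 had a row in the table and 4 passed the filter. *Mira*, a noncoding RNA beside *Hoxa6* and *Hoxa7*, was at 0.0740 and 0.0850 RPKM in cKO CLH, 0 in Ctrl CLH, and in CLT at 3.22 and 0 for Ctrl against 12.5 and 12.7 for cKO, and *Gm53*, in the *Hoxb* cluster, at 0.720 and 0 in Ctrl CLT against 2.08 and 3.74 in cKO CLT. The precursor of miR-196a between *Hoxb9* and *Hoxb13* (*Mir196a-1*) had 7 and 0 reads in Ctrl CLT against 26 and 25 in cKO CLT, and that of miR-10a next to *Hoxb4* (*Mir10a*) 1 and 0 against 21 and 14. These 4 passed the filter through cKO CLT, so no test of them is given. 2700086A05Rik and 1700109F18Rik had 11 and 7 and 7 and 6 reads in cKO CLT and at most 1 elsewhere, whereas 5730457N03Rik had 3 reads in Ctrl CLT 1, 1 in each cKO CLH library and 0 in cKO CLT. *Hotair* (*Hoxc* cluster), *Hoxa11as*, *Mir10b*, *Mir196a-2*, *Mir196b* and *Mir615* were listed at 0 in every library. These libraries were not made from small RNA, so the reads mark the precursor transcripts and not the mature miRNAs.

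The mature 5p strands of these precursors show which clusters carry the same miRNA seed (bases 2 to 8, in capitals; sequences from RefSeq for GRCm38.p6, with U for T). Each precursor that was read has a counterpart with the same 5p seed that was not read, whereas *Mir615* shares its 5p seed with none of the others. On chromosome 11 lie miR-10a-5p at chr11:96317186-96317208 and miR-196a-5p at chr11:96265187-96265208, both on the plus strand, miR-10b-5p lies at chr2:74726074-74726096 on the plus strand and miR-196b-5p at chr6:52230129-52230150 on the minus strand.
mmu-miR-10a-5p: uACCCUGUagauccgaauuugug
mmu-miR-10b-5p: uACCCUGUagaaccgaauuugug
mmu-miR-196a-5p: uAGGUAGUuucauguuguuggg
mmu-miR-196b-5p: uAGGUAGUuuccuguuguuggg
Reads thus fell on the *Hoxb* cluster copy of each seed family, and none on the *Hoxd* copy of the first, or on the *Hoxc* (*Mir196a-2*) and *Hoxa* copies of the second. These rows are only 68 to 110 bases long and held at most 26 reads in a library, so a count of 0 does not show that a copy is silent. *Mir10b* also lies within the spans of *Hoxd3* and *Hoxd4*.

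Promoter sequences of members are shown next to ask whether short motifs recur in them. RefSeq promoter entries (GRCm38.p6) matched 22 of the 39 members, read or not, *Hoxa13* and *Hoxd12* without any read among them. For 4 of the 22 the RefSeq start lay more than 50 bases from the start of the deposited gene span. In the 250 bases before the RefSeq start, on both strands and with overlapping matches kept, a Hox-Pbx type motif (TGATNNAT) was found in 18.2% of the 22 and in 7.68% of all 32851 promoters, and the nuclear receptor half-site AGGTCA in 27.3% and 14.0%. CCAAT was in 59.1% and 33.8%, and TATAAA in 13.6% and 12.4%. CpG dinucleotides numbered 12.5 at the median of the 22 and 6 over all promoters. The 2 shown are *Hoxd8*, the highest member with an entry, which had reads in every library, at chr2:74704365-74704614 (its RefSeq start is 874 bases before the deposited one), and *Hoxb8*, with 1 read in all CLH libraries together, at chr11:96281655-96281904, both on the plus strand, with matches in capitals.
Hoxd8: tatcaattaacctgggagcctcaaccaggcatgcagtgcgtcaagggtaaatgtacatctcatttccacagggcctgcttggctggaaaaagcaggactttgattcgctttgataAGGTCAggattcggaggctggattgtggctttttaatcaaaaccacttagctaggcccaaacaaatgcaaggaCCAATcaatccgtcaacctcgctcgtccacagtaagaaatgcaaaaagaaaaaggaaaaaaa
Hoxb8: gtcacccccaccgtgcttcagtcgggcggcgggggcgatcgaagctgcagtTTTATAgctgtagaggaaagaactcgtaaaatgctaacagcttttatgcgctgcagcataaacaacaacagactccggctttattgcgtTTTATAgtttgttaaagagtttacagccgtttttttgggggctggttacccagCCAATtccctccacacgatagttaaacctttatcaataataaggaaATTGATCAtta
*Hoxb8* holds TGATNNAT, CCAAT and TATAAA and *Hoxd8* holds AGGTCA and CCAAT; a match is a run of letters and not evidence of binding.

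Genes known to act with or on Hox genes were taken from lists written for this purpose. Hox proteins bind DNA with PBC and MEIS partners, and of 7 such cofactors tested 0 were called for cKO against Ctrl in CLT (median difference -0.08 on the log2 scale, against -0.01 over all genes). Counts called in this and the following lists are to be read against 0.0777% of all genes called higher and 1.68% lower in that comparison, and 28.9% higher and 45.1% lower for CLT against CLH in cKO. The difference was -1.46 ± 0.26 (SE) for *Meis3* and 0.97 ± 0.26 for *Meis1*. In cKO, 4 of the 7 were called lower in CLT than in CLH, *Meis3* the most (-2.35 ± 0.15), and *Meis1* was called higher (0.43 ± 0.10). Summed levels of the cofactors were 43.9 and 42.8 RPKM in cKO CLT, 46.7 and 67.7 in Ctrl CLT and 75.5 to 76.8 in CLH, so here Ctrl CLT 1 stood next to cKO CLT.

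Polycomb complexes keep Hox genes silent where they are not used. Of 20 subunits tested, 0 were called for cKO against Ctrl in CLT (median 0.00). At an unadjusted p of 0.05, 4 of the 20 were higher and 3 lower, against 19.8% and 16.4% of all genes. *Cbx2* (1.45 ± 0.26, SE), *Phc1* (-1.15 ± 0.34) and *Jarid2* (1.07 ± 0.16) differed most. In cKO, 3 were called higher and 10 lower in CLT than in CLH, among them *Phc1* (-1.85 ± 0.09) and *Jarid2* (0.97 ± 0.09). Of 10 factors that maintain Hox expression, such as the histone methyltransferases of the trithorax group, 0 were called between the genotypes in CLT (median 0.27), *Psip1* differing most (-1.33 ± 0.56), and 3 were called higher and 3 lower between the tissues in cKO.

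Retinoic acid switches on the anterior Hox genes in the embryo. Of 18 genes of its pathway, 0 were called for cKO against Ctrl in CLT (median -0.31), with *Cyp26a1*, which degrades retinoic acid, at -3.83 ± 0.62 (SE), the receptor *Rarb* at -2.74 ± 0.42 and *Stra6*, the retinol importer, at 2.48 ± 0.66. In cKO, 14 of the 18 were called lower and 3 higher in CLT than in CLH, against 45.1% and 28.9% of all genes (*Cyp26a1* -5.38 ± 0.12, *Stra6* 3.29 ± 0.12). Of the genes that flank the clusters on the chromosome, 14 were tested: 0 were called between the genotypes in CLT (median -0.05), and 5 were called higher and 7 lower in CLT than in CLH of cKO. *Snx11*, on the *Hoxb1* side of its cluster, was at 1.12 ± 0.26 (SE), *Smug1* at 1.10 ± 0.27 and *Snx10*, beside the *Hoxa* cluster, at -1.83 ± 0.32 for cKO against Ctrl in CLT.

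Homeobox genes outside the clusters, such as the *Dlx*, *Msx*, *Pitx* and *Alx* genes, pattern the jaw and the tooth. Of 16 tested, 3 were called lower and 0 higher for cKO against Ctrl in CLT (median -1.73), against 1.68% and 0.0777% of all genes, among them *Dlx2* (-1.39 ± 0.14, SE, adjusted p 0.0459) and *Pitx1* (-1.88 ± 0.21, 0.0492). In cKO, 14 of 16 were called lower in CLT than in CLH and 1 higher, against 45.1% and 28.9% of all genes. Their summed levels were 272 and 281 RPKM in cKO CLT, 364 and 489 in Ctrl CLT and 547 to 584 in CLH. In CLH, 0 of the 16 were called between the genotypes, with 3 higher at an unadjusted p of 0.05, against 4.83% of all genes.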

How the data were processed

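RNA-seq of CLH and CLT tissues of *Med1* cKO and Ctrl mice was analysed, with 2 libraries in each of the 4 groups given by the sample labels. The authors aligned the reads to mm10 with STAR 2.6.0b-1, counted them per gene with featureCounts 1.6.3 and deposited RPKM values for 23358 genes; the submitters' processing notes also list Trim Galore 0.4.3.1, FastQC 0.72 and DESeq2 2.11.40.2. The annotation, strand setting and RPKM total are not given in the sources used here. RPKM times gene length gave whole multiples of 1 step in each library (within 0.02) for 100.0% of the values checked, which returned the read counts and library totals, 82.2% to 85.6% of them on genes. A count of 0 allows up to 3 reads; intervals are exact binomial at 95%, and floors and intervals cover counting error only, since reads are not independent molecules. A name on more than 1 row occurred for 26 genes, none of them a Hox gene. 0 columns were left unused.

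Differences of log2(RPKM + 1) were tested with limma 3.58.1 in R 4.3.3 (variance trend, two-sided, Benjamini-Hochberg over all 14148 genes with at least 1 RPKM in 2 libraries), each comparison in its own 4 libraries; 0.333 is the smallest p that exact permutation of 2 against 2 libraries allows. The scripts were tested on simulated data. Alternatives were pseudocounts of 0.1 and 0.5, no filter or a filter on the mean RPKM, median-of-ratios and quantile scaling, a replicate block, a joint fit of all 8 libraries, robust eBayes, eBayes without the trend, voom on the recovered reads, and each library left out. Members are accounted for, those passing the filter with their value in each CLT library and only some of them with each CLH value. Of other lists, genes past the threshold or the 3 with the largest differences are named, with the exceptions below, and other examples were picked with their values in view. The family and all lists were chosen with earlier results of these data known. Values of 1 member and of some listed genes are not reported here singly, though counts and sums include them. ChIP-seq and microarrays were not analysed here.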

Additional observations from a re-analysis of the deposited data

Results flagged for a closer look

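A test of whether the difference between cKO and Ctrl differed between CLT and CLH (limma over all 8 libraries, interaction term) passed an adjusted p of 0.05 for 4 of the 19 Hox genes tested, where 8.05% of all genes passed in that direction and 9.58% in the other. The differences, CLT effect minus CLH effect of log2(RPKM + 1), were 1.25 for *Hoxa6*, 1.44 for *Hoxd4*, 1.29 for *Hoxc4* and 1.46 for *Hoxa7* (limma, adjusted p 0.0139, 0.0223, 0.0292 and 0.0331). All 4 were higher in both cKO CLT libraries than in both Ctrl CLT libraries, as were 33.8% of all genes with a read. These 4 are members whose level in Ctrl CLT 1 was low relative to cKO CLT, at 6.52% (*Hoxa6*), 25.1% (*Hoxd4*), 12.7% (*Hoxc4*) and 24.4% (*Hoxa7*). *Hoxc13*, with the largest difference of all members (3.70 ± 1.79, SE), did not pass (limma, adjusted p 0.18). Over the alternatives the adjusted p ran from 0.00012 to 0.12 for *Hoxa6*, 2.95e-05 to 0.12 for *Hoxd4*, 0.00063 to 0.31 for *Hoxc4* and 1.55e-05 to 0.27 for *Hoxa7*. The family was singled out with the CLT values known, so these results are a description.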

How the results depend on the processing

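For cKO against Ctrl in CLT, the count of Hox genes called was 0 of 19; it became 18 with all 8 libraries in 1 fit and 12 with a replicate block, and ran from 0 to 19 with 1 library left out. It was 19 without Ctrl CLT 1 or without Ctrl CLT 2, with the lone Ctrl library assumed to vary like the others. Same-numbered CLT libraries of Ctrl and cKO deviated in opposite directions (correlation -0.19). Over the other pairs of groups the correlation ran from -0.14 to 0.31, with 0.20 between CLH and CLT of Ctrl and 0.31 between those of cKO. A block with crossed numbers, added after the data were seen, called 0. The study names 2 litters but not which library came from which, and the labels do not say that a number pairs libraries. With the replicate block 3 members were called for the interaction, and no other count of Hox genes changed by over 1.5 times. For CLT against CLH in Ctrl, the count depended on which library was left out. In cKO it was 31 of the 35 members entered without a filter, where 4474 of 19755 genes were called higher. With a filter on the mean it was 11 of the 11 entered, where 3732 of 13408 genes were called higher. For the interaction, the count of 4 became 0 with a pseudocount of 0.1 and with voom. It was 12 of 35 without a filter (1125 of 19755 genes called higher) and 7 of 19 with quantile scaling (1131 of 14148). The filter on the mean gave 0 of 11 (969 of 13408). However, the 4 members called were too low to enter that fit, so it cannot test them. Among fits with 1 library left out, the median interaction difference over the 19 members was lowest, at 1.15, when Ctrl CLT 2 was dropped. It was highest, at 2.28, when Ctrl CLT 1 was dropped, against 1.71 with all libraries. The cause was not tested.

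With 1 library left out, the members without overlap between the genotypes numbered 0 to 1 for cKO lower in CLT (1 without Ctrl CLT 2). They numbered 2 to 14 for cKO higher in CLH (14 without cKO CLH 1) and 1 to 3 for cKO lower in CLH (3 without Ctrl CLH 1). With all libraries these counts were 0, 2 and 1. Leaving a library out can only add genes without overlap. The share over all genes was not computed for such counts, so nothing is read from them. Fitted signs of members turned with 1 library left out for 5 of 19 in CLH (*Hoxa5*, *Hoxb2*, *Hoxb3*, *Hoxd4* and *Hoxd8*) and 5 for CLT against CLH in Ctrl (*Hoxa7*, *Hoxb2*, *Hoxb3*, *Hoxd8* and *Hoxd9*, all without Ctrl CLT 1), and with quantile scaling or voom for *Hoxa5* and *Hoxb2* in CLH, both near 0. With 1 library left out, in CLH *Hoxd4* ran from -0.087 to 0.061 and *Hoxd8* from -0.21 to 0.13, and for CLT against CLH in Ctrl *Hoxd8* ran from -0.22 to 1.52. The count of 31 members higher in CLT stayed between 31 and 33, the count called in CLH was 0 in every alternative run, and for CLT against CLH in cKO 19 of 19 were called with any single library left out.

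Over all genes, cKO against Ctrl in CLT gave 11 higher and 237 lower calls, 0 and 3 without a filter, 3352 and 2831 with all libraries in 1 fit, 888 and 856 with the replicate block, 0 and 18 with voom, and 0 to 4445 and 11 to 5393 with 1 library left out; for CLT against CLH in Ctrl 1 higher and 0 lower became 346 and 491 in 1 fit, 5 and 0 with the replicate block, and 2600 and 4937 without Ctrl CLT 2. In CLH 0 and 0 became 2 and 2 with robust eBayes, and for the interaction 1139 and 1355 became 513 and 935 with the replicate block, and ran from 2 to 4028 and from 196 to 4904 with 1 library left out. Median-of-ratios scaling moved the median over all genes for CLT against CLH in cKO from -0.18 to 0.02 and its calls from 4084 higher and 6384 lower to 5270 and 4884; no tested member changed direction. Depth limits the low members: most Hox genes had 0 to 3 reads in CLH and in Ctrl CLT 2, where only lower bounds can be given.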
